A study of Mus musculus with 4 samples.

Results

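Long non-coding RNAs (lncRNAs) are transcripts without a long reading frame, and the accessible regions at the ends of their genes in mouse colonic epithelium are described here. Among 111280 distinct accessible regions on chromosomes 1 to 19, 3202 (2.88%, Wilson 95% interval 2.78 to 2.98) had their strongest summit within 1000 bp of an outer end of an annotated lncRNA gene and more than 5 kb from every protein-coding gene end. They made up 4.29% of the 74717 regions that lay more than 5 kb from coding ends, covered 2442 kb and lay at 2649 of 12408 lncRNA genes. A further 2394 regions lay within 1000 bp of a lncRNA end but within 5 kb of a coding end and are not among them.

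The material was wild-type colonic epithelial organoids, crypt-derived cultures kept in a Wnt, EGF, Noggin and R-spondin medium. The 4 libraries, each the 1 library of its group, came from animals with chronic colitis or from healthy animals (the number of animals per culture is not stated in the labels), and each culture received 10 µM T-5224 or the 0.1% DMSO vehicle for 24 h before it was viably frozen, thawed and lysed to nuclei. T-5224 is a small-molecule inhibitor of AP-1, the Fos and Jun family of dimeric transcription factors. Accessibility was read by ATAC-seq, which tags open chromatin with sequencing adapters through a hyperactive Tn5 transposase. The file analysed here is 1 peak list with no value per library. The labels do not say which libraries entered the call. Therefore neither colitis and control nor T-5224 and DMSO were compared. There is no replicate value, and the intervals below cover counting error only. The strength of a region is the authors' fold, the pileup of fragments at its strongest summit over an expected background that was the same for every region (7.63), so copy number and local background are not divided out. As a check of the tissue label, 11 of 12 epithelial marker genes had a summit at a gene end (median 35.9-fold, with Muc2 at none). Of the other lists, 4 of 8 leukocyte markers had one, with Ptprc, Cd3e and Cd79a among those at none, as had 5 of 10 fibroblast, endothelial and muscle markers and 3 of 6 neuron and heart markers (median 1.74, 1.33 and 2.20-fold, genes without a summit counted as 0). Single genes of these lists still reached 25.7, 16.3 and 22.3-fold, against a highest epithelial value of 61.3-fold, so the check does not exclude other cells.

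A lncRNA gene has a promoter at its 5′ end that is read by RNA polymerase II, as coding genes do, and active promoters are open to Tn5. LncRNA genes also start within enhancers, and many act as hosts that are processed into microRNAs or small nucleolar RNAs. Malat1 is an abundant nuclear RNA in most tissues, and the miR-200 family is a regulator of epithelial identity.

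Promoter sequences are shown first for the members on which the account turns, each as the 300 bases from 250 before to 50 after the RefSeq start in GRCm38.p6 (mm10), 5′ to 3′ along the gene. Capitals mark matches on either strand. The letters searched were TGANTCA for AP-1, which is the site of Fos and Jun dimers. For the SP and KLF factors they were GGGCGGG, for the factor NF-Y they were CCAAT, and for the ETS factors they were CCGGAAG. For the TATA box they were TATAAA, and for YY1, a factor of many housekeeping promoters, they were AAGATGGC. Cyclic AMP response elements were searched as TGACGTCA, the nuclear receptor HNF4 as CAAAGTCCA, and NRF1 by its palindromic site. Matches can overlap, and a match is a description of letters, not a bound site. Some strong 5′-end members are not printed, such as A730020M07Rik (75.7-fold) and Gm38543 (61.9-fold), the latter without any of the letters. These 5 were picked from among the strongest regions at 5′ ends, so they give no share. The first 4 hold the SP and KLF letters, which stand in 32.9% of lncRNA promoters whose region has 30-fold or more, and Gm40399 (67.6-fold) does not:
Chaserr (chr7:73558346-73558645, minus strand): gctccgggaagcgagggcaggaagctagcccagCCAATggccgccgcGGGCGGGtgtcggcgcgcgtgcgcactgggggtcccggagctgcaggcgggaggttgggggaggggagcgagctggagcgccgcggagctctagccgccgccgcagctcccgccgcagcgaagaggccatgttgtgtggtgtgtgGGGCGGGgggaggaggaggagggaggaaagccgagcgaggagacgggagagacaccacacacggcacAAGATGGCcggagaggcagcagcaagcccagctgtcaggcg
Snhg5 (chr9:88522848-88523147, minus strand): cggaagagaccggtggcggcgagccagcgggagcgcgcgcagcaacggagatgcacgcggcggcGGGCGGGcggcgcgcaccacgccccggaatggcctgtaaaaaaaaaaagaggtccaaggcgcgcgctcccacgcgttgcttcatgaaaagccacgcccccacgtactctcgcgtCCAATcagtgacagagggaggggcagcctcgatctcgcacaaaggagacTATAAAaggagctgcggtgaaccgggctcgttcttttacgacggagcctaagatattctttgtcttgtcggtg
1700028E10Rik (chr5:151368425-151368724, plus strand): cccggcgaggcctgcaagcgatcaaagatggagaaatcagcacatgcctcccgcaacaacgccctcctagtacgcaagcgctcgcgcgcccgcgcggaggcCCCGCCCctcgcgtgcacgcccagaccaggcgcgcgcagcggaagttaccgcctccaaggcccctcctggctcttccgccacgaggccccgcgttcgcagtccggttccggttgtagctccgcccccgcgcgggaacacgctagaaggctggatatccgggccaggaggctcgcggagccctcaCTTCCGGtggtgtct
D130051D11Rik (chr15:85634346-85634645, plus strand): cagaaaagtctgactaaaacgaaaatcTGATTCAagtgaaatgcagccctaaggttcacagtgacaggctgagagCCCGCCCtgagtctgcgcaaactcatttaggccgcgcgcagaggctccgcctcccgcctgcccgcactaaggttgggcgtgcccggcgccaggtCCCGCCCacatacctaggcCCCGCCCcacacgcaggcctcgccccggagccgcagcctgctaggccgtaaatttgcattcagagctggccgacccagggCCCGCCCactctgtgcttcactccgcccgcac
Gm40399 (chr12:39950577-39950876, minus strand): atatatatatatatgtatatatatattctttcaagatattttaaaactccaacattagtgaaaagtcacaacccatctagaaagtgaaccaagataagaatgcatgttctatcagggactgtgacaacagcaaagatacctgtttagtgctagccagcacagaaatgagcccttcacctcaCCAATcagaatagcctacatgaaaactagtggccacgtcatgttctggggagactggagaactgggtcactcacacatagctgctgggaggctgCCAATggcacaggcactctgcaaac

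These 3 are the starts of the 3 strongest host genes whose microRNA hairpins lie on the strand of the lncRNA. They hold the SP and KLF letters and the NF-Y letters. The starts of the weaker hosts Mir205hg and Snhg20 lack the SP and KLF letters. Promoters of the remaining hosts are not given, so these few do not link the letters to host strength. The NF-Y letters stand in 37.4% of all promoters, 36.8% of lncRNA promoters without a region and 33.1% of those with one at 10-fold or more:
Mir22hg (chr11:75461289-75461588, plus strand): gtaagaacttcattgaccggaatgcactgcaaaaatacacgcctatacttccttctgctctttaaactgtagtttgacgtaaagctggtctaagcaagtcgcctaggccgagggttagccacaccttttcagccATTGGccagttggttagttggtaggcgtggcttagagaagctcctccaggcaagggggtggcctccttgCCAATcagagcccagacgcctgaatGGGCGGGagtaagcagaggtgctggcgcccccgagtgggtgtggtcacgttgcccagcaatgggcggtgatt
Gm13648 (chr4:156059753-156060052, minus strand): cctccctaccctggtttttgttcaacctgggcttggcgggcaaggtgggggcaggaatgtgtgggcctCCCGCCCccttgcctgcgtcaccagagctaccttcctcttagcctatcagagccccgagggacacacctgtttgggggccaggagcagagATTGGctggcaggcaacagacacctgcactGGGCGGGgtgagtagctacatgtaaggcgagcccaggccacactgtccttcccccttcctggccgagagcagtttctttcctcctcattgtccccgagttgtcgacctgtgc
Mirc35hg (chr6:30174076-30174375, minus strand): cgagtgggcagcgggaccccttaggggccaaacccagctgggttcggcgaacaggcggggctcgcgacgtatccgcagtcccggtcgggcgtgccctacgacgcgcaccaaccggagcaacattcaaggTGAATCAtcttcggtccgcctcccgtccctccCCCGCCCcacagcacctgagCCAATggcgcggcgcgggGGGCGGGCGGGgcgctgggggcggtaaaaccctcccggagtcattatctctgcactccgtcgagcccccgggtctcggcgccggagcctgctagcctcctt

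The last 4 show the range among named genes. Malat1 is the widest region, Dancr holds 3 NF-Y matches, Egfros holds 2 AP-1 matches near its start, and Kcnq1ot1 is among the weakest:
Malat1 (chr19:5802623-5802922, minus strand): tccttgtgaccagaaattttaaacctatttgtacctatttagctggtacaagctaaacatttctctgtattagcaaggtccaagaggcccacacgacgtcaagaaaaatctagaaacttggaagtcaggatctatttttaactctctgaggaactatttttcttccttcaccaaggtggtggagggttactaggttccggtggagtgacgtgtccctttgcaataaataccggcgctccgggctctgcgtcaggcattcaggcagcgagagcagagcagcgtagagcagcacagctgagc
Dancr (chr5:74092810-74093109, plus strand): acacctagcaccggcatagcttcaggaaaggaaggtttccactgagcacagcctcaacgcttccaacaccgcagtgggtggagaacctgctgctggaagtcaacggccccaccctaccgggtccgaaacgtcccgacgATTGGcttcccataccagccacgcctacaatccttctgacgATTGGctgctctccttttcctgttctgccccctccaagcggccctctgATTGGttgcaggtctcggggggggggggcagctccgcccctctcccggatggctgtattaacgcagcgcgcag
Egfros (chr11:16830701-16831000, minus strand): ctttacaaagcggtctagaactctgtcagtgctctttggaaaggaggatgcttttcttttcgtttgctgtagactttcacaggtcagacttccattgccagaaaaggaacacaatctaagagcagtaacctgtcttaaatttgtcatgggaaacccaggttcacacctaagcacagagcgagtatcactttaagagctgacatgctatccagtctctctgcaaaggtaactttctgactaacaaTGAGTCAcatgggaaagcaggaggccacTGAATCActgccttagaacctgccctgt
Kcnq1ot1 (chr7:143296498-143296797, minus strand): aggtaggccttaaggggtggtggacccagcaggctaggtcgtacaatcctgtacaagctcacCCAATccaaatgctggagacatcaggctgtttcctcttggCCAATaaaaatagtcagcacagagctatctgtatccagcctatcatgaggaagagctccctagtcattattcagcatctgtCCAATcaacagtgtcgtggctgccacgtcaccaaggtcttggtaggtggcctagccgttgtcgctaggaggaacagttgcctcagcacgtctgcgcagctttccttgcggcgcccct

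MicroRNAs from the 3 strongest hosts, and miR-205 from the weaker Mir205hg because it is a known epithelial microRNA, are shown as mature RefSeq sequences with the seed, bases 2 to 8, in capitals. MiR-200b-3p and miR-429-3p share the seed AAUACUG, and miR-200a-3p has AACACUG:
mmu-miR-22-3p: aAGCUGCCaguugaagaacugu
mmu-miR-200b-3p: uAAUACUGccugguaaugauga
mmu-miR-429-3p: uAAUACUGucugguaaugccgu
mmu-miR-200a-3p: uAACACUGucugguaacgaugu
mmu-miR-182-5p: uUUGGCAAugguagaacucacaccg
mmu-miR-96-5p: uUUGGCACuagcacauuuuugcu
mmu-miR-183-5p: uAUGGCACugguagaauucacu
mmu-miR-205-5p: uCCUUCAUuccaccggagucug

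Regions at lncRNA ends were modestly stronger than other regions away from coding ends and much weaker than regions at coding ends. Their median fold was 5.56 (quartiles 3.36 and 11.9, range 2.09 to 82.4), compared with 4.75 (3.13 to 9.04) for the 71515 other regions more than 5 kb from coding ends and 17.7 for 15283 regions within 1000 bp of coding ends. At least 10-fold was reached by 945 of 3202 (29.5%, Wilson 95% interval 28.0 to 31.1), next to 27.1% of all regions on chromosomes 1 to 19, 22.0% of the other away regions and 60.1% at coding ends. At least 50-fold was reached by 53 (1.66%), next to 2.07% of all regions, and no member exceeded 100-fold. The share at 10-fold was higher than that of other away regions on 19 of 19 chromosomes, and the median was higher on 18 of 19. The mean of the chromosome medians was 5.61 ± 0.605 (SD over chromosomes, which are not replicates) for members and 4.71 ± 0.111 for other away regions.

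**Figure D1:**
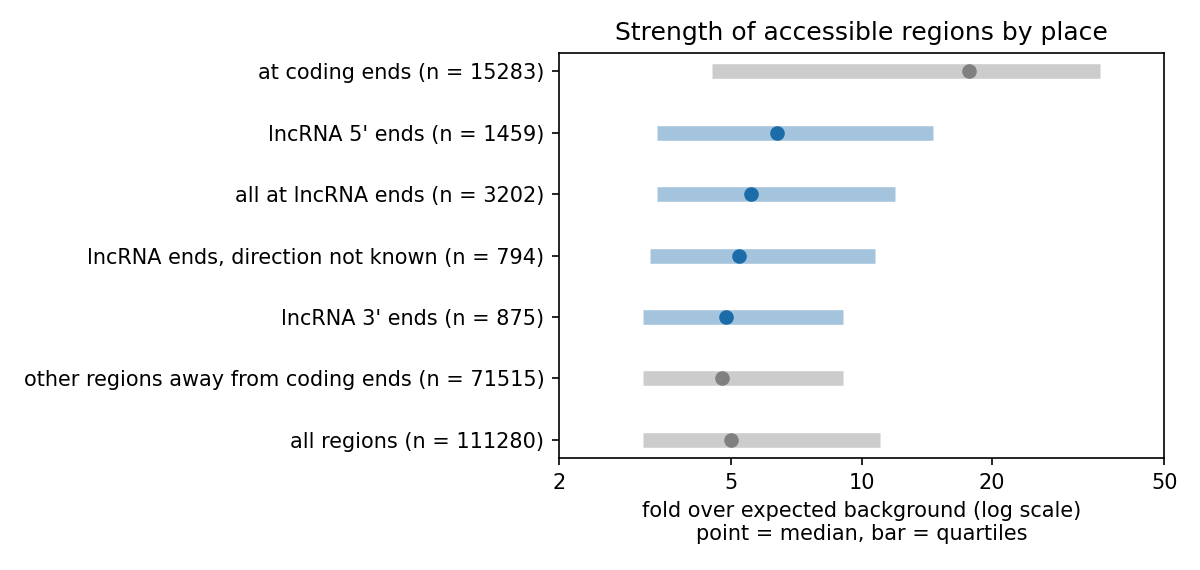
Median (point) and quartiles (bar) of the fold over expected background, on a log axis, for regions by place, with lncRNA-end groups in blue. The median falls from 17.7 at coding ends to 6.38 at lncRNA 5′ ends, 4.87 at lncRNA 3′ ends and 4.75 for other regions away from coding ends.

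The members were also wider and more often had several summits. Their median width was 521 bp, against 453 bp for other away regions, and 24.0% had more than 1 summit, against 16.1%. Width went with strength: the 2257 members below 10-fold had a median width of 412 bp and 12.2% had several summits, while the 945 at or above 10-fold had 1195 bp and 52.1%. Just inside and outside the limits of the rule the folds were as follows, too few on each side to compare. The 5 members at 998 to 1000 bp from a lncRNA end had folds of 2.20 to 36.9 (median 7.77), and the 5 regions at 1001 to 1003 bp had 5.33 to 21.9 (median 7.19). The 5 members 5002 to 5015 bp from a coding end had 2.55 to 5.68 (median 3.13), and the 5 regions 4969 to 5000 bp away had 2.67 to 9.51 (median 4.64).

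Members at 5′ ends had higher folds than those at 3′ ends. Strand was known from the RefSeq promoter table for most genes, which put 1459 members at a 5′ end, 875 at a 3′ end and 74 at both kinds, with 794 not known. The 5′-end members had a median of 6.38-fold and 35.2% at 10-fold or more, and the 3′-end members had 4.87-fold and 22.3%. Of the 53 members at 50-fold or more, 38 lay at 5′ ends and 6 at 3′ ends. Members within 250 bp of the end had a median of 6.61 (35.7% at 10-fold or more), and those over 750 bp away had 4.75 (25.5%), the same median as other away regions.

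Around 6174 lncRNA 5′ ends more than 10 kb from coding ends, there were 55.6 regions per 1000 ends in the 250 bp before the end and 40.2 in the 250 bp after it. In the other 250 bp steps out to 5 kb on each side the number was between 12.8 and 22.4. Regions at 10-fold or more gave 21.2 and 16.2 per 1000 in the same 2 steps, with 2.27 to 6.80 elsewhere. Around 6479 lncRNA 3′ ends the number stayed between 10.8 and 17.9 throughout, with no peak at the end.

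**Figure D2:**
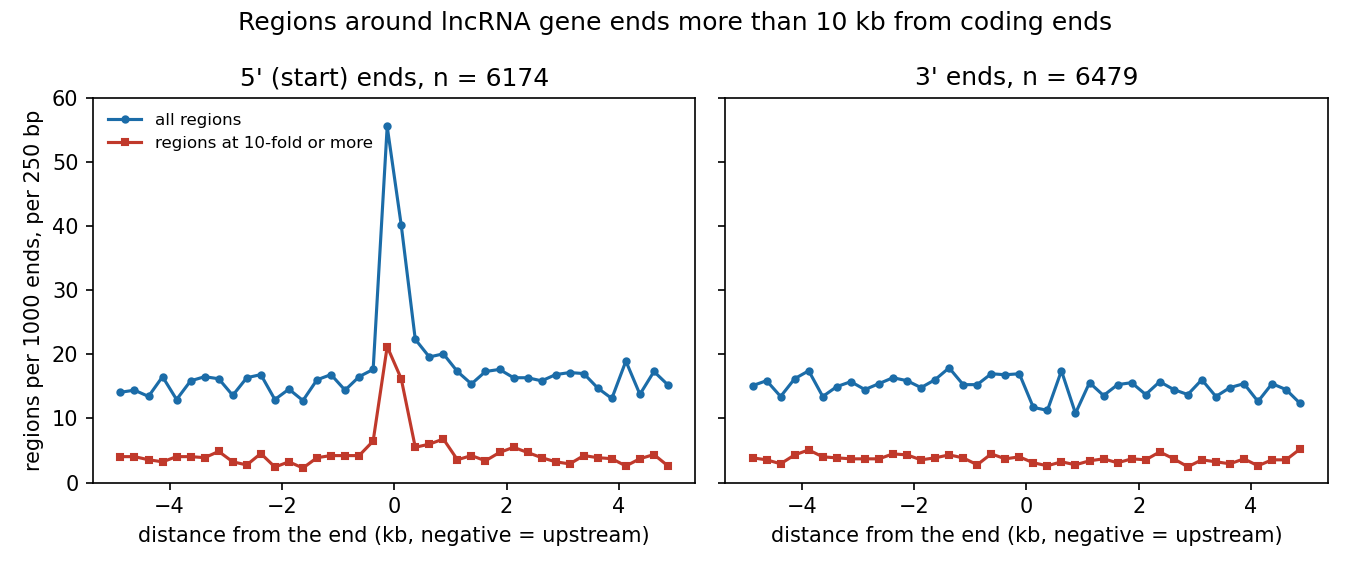
Regions per 1000 ends in 250 bp steps from 5 kb upstream to 5 kb downstream of lncRNA 5′ ends (left) and 3′ ends (right), for all regions (blue) and those at 10-fold or more (red). At 5′ ends the curve rises to 55.6 in the step just upstream, and at 3′ ends it stays between 10.8 and 17.9.

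The same genes could be read at both ends. Among 4490 lncRNA genes of at least 5 kb with both ends away from coding ends, 789 (17.6%, 16.5 to 18.7) had a region at the 5′ end and 420 (9.35%, 8.54 to 10.2) at the 3′ end. At 10-fold or more the counts were 283 (6.30%) and 101 (2.25%). Regions stood at both ends in 141 genes, at the 5′ end alone in 648, at the 3′ end alone in 279 and at neither in 3422. Where both ends had a region, the 5′ region was the stronger in 90 genes and the 3′ region in 50. For all lncRNA genes with both ends away from coding ends, 2196 of 8644 (25.4%, 24.5 to 26.3) had a region at an end. The share was 17.1% for genes with LOC numbers (33 of 193), 24.7% for predicted genes with Gm numbers, 29.4% for Rik clones, 33.8% for opposite-strand or antisense genes, 36.6% for genes with another name and 50.0% (8 of 16) for hosts of small RNAs.

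A coding start can lie inside a coding gene and so escape the 5 kb limit, which refers to outer gene ends. Only 17492 of 21900 coding genes had an entry in the promoter table, none on chromosome 18, so the count below is a minimum. Within 1000 bp of 86 members (2.69%) the promoter table held a coding start, and these had a median of 15.6-fold and included 8 of the 53 at 50-fold or more. Without them the median was 5.45 and the share at 10-fold 28.7%, compared with 21.7% of other away regions treated alike, and at 5′ ends the share was 33.8%.

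The strongest members stand mostly at genes with Gm numbers or Rik clones, as do most of all 3202 members (2552 and 464). Gm40345, on chromosome 5, reached 82.4-fold over chr5:135687869-135690014 inside Por, the cytochrome P450 reductase gene, and its summit was 140 bp from an internal Por start, so the lncRNA and the Por start cannot be told apart there. The lncRNA 1700028E10Rik, shown above, reached 81.3-fold at its 5′ end inside Stard13, a gene of a GTPase-activating protein, 59.5 kb from the nearest coding end and 36 bp from its own start. D130051D11Rik reached 80.1-fold, 52.8 kb from Wnt7b, which encodes a Wnt ligand and itself had 5.91-fold at its ends. A730020M07Rik reached 75.7 and 1700096K18Rik 75.6-fold, with nearest coding ends at 23.9 kb (4930432M17Rik, at 2.43-fold) and 11.7 kb (Cct8l1, without a summit).

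Several of the others stand beside epithelial or cytoskeletal genes. Gm41404 reached 72.8-fold in a 6338 bp region with 7 summits, 10.1 kb from Krt18, a keratin of simple epithelia that had 31.8-fold at its ends. Gm46099 (72.3-fold) lay inside Ngef, a guanine nucleotide exchange factor gene, and Gm38978 (67.9-fold) inside Actn4, which encodes an actin cross-linker. The 4930554I06Rik region (70.3-fold, chr19:21105594-21109186) lay beyond the 3′ end of its gene and was the strongest at a 3′ end. Gm35607 on chromosome 18 reached 69.4-fold, 36.3 kb from Csnk1a1, a kinase of the Wnt pathway's β-catenin destruction complex. Gm40399 reached 67.6-fold, 82.7 kb from Arl4a. Gm46766 (63.4-fold) had its summit 32 bp from an internal start of Cds2, and Gm10433 had 63.1-fold at its 5′ end. With Chaserr and Mir22hg, described next, 11 of the 15 strongest lay at 5′ ends. Counting intervals of neighbours in this order overlapped; that of Gm40345 ran from 76.5 to 88.7.

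Of 135 lncRNAs listed as well known, 95 were lncRNA genes of the table on chromosomes 1 to 19, and the other listed names were not analysed here. Among the 95, 29 had a member region, compared with 2649 of 12408 lncRNA genes (21.3%). Of the 29, 17 had 10-fold or more (median 11.8-fold), and over all 2649 genes the strongest member had 10-fold or more in 926 (35.0%, median 6.72-fold). Another 37 had a region at an end that lay within 5 kb of a coding end (median 26.3-fold, 2.67 to 81.3, 24 at 10-fold or more), such as Snhg10 at 81.3, Junos beside Jun at 76.2, Snhg1 at 62.4 and Gas5 at 61.8-fold. Neat1 (50.4-fold) and Dleu2 (23.5-fold) had only a weaker summit of a region near an end. The remaining 27 had no summit at an end, and 16 of these had none within the gene either. They were Miat, H19, Meg3, Rian, Snhg14, Mir17hg, Mir155hg, Mir100hg, Mir124a-1hg, Mir9-3hg, Carmn, Lincred1, Nron, Panct2, Pantr1, Lncenc1, Platr4, Platr7, Platr10, Tunar, Dnm3os, Hoxaas2, Six3os1, Sox2ot, Dlx6os1, Rmst and Ptgs2os2.

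**Figure D3:**
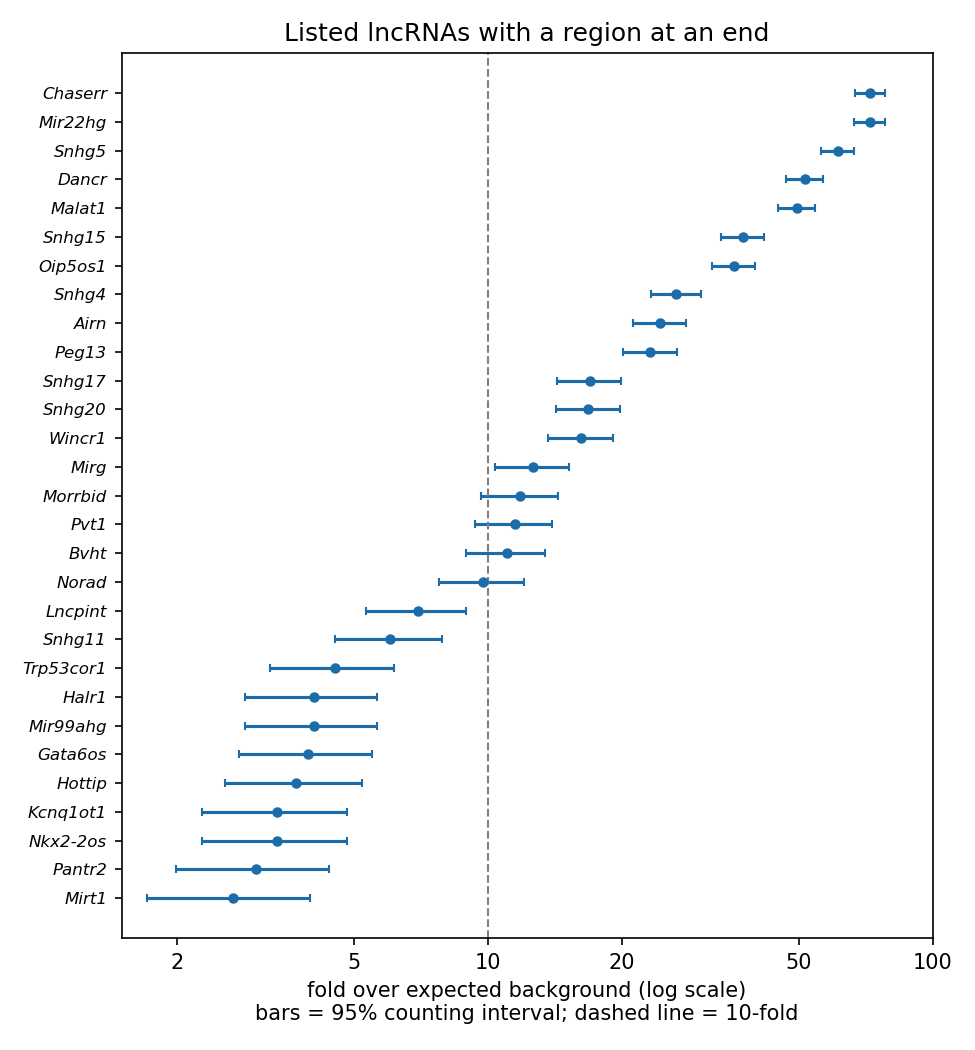
Fold over expected background (log axis) of the strongest member region at each of the 29 listed lncRNAs, with 95% Poisson counting intervals. Chaserr and Mir22hg lie at 72.3 and 72.2-fold, and 17 of 29 lie at or above the dashed line at 10-fold.

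Chaserr, which is transcribed beside Chd2 and limits expression of that chromatin remodeller, had 72.3-fold (95% counting interval 66.8 to 78.2) at its 5′ end. The ends of Chd2 had 21.3-fold. The highest fold within the Chaserr gene was the same 21.3, so that value cannot be assigned to Chd2 alone. Oip5os1, known as Cyrano, which promotes decay of a microRNA, had 35.7-fold. Norad, which sequesters Pumilio proteins, had 9.74-fold. Pvt1, the neighbour of Myc, had 11.5-fold at an end and 24.0-fold within the gene. Of the lncRNAs tied to p53, Lncpint had 6.96-fold at its 3′ end and 63.3-fold within the gene, and Trp53cor1, also known as lincRNA-p21, had 4.52-fold. Wincr1, named for its induction by Wnt and β-catenin signalling, had 16.2-fold, Morrbid 11.8-fold, Bvht 11.01-fold and Pantr2 3.01-fold.

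The hosts of small RNAs included several of the strongest. Mir22hg had 72.2-fold (66.7 to 78.1), Snhg5 61.2-fold (56.1 to 66.7), Dancr 51.6-fold (46.9 to 56.6) and Snhg15 37.4-fold (33.5 to 41.8), so the intervals of Mir22hg and Snhg5 barely missed each other and that of Snhg15 lay below the other 3. Snhg4 had 26.5, Snhg17 16.9, Snhg20 16.8 and Snhg11 6.03-fold. Mir99ahg had 4.06-fold. Mirt1, a transcript named for myocardial infarction that was on the same list and holds no annotated microRNA hairpin, had 2.67-fold at its end against 40.3-fold within the gene.

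The imprinted lncRNAs, expressed from 1 parental allele, covered a wide range. Airn, which silences Igf2r on the paternal chromosome, had 24.3-fold, with its summit 824 bp upstream of its start, and Peg13 had 23.2-fold. Mirg, the microRNA-rich transcript of the Dlk1 to Dio3 domain, had 12.6-fold beyond its 3′ end, while Meg3, H19 and Rian had no summit within the gene. Kcnq1ot1 had 3.36-fold at its start and 17.6-fold within the gene. The 4 homeobox-cluster and developmental members had low folds, with Halr1 at 4.06, Gata6os at 3.94, Hottip at 3.71 and Nkx2-2os at 3.36-fold. Another summit near an end of Hottip had 16.5-fold. Of the same list, 13 lncRNAs had a region within 5 kb of a coding end, and these reached 48.9 (Foxd2os), 46.5 (Hoxaas3) and 39.8-fold (Hotairm1). Within the Gata6os gene, near an end, a summit reached 45.2-fold, the same fold as at the ends of Gata6. Gata6os and Gata6 cannot be told apart there.

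Malat1, a nuclear-speckle RNA, had the widest member, 13488 bp with 26 summits (chr19:5791882-5805369), and it spanned the whole gene (6983 bp) and both flanks. The strongest summit, 49.5-fold, lay 977 bp upstream of the start. Another at 49 bp inside the gene had 25.4-fold. Across the 17 summits inside the gene the median was 6.49-fold (2.90 to 25.4), and 6 summits beyond its 3′ end had 2.90 to 21.7-fold (median 18.2). The next widest were Gm41404, Gm39098 inside Tacc2 (6075 bp, 13 summits, 31.0-fold), 2900089D17Rik (5735 bp, 10 summits, 36.9-fold, 70 bp from a Bri3 start) and 2610035D17Rik (5079 bp, 11 summits, 35.0-fold). Gm32298 had 9 summits and 26.3-fold.

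**Figure D4:**
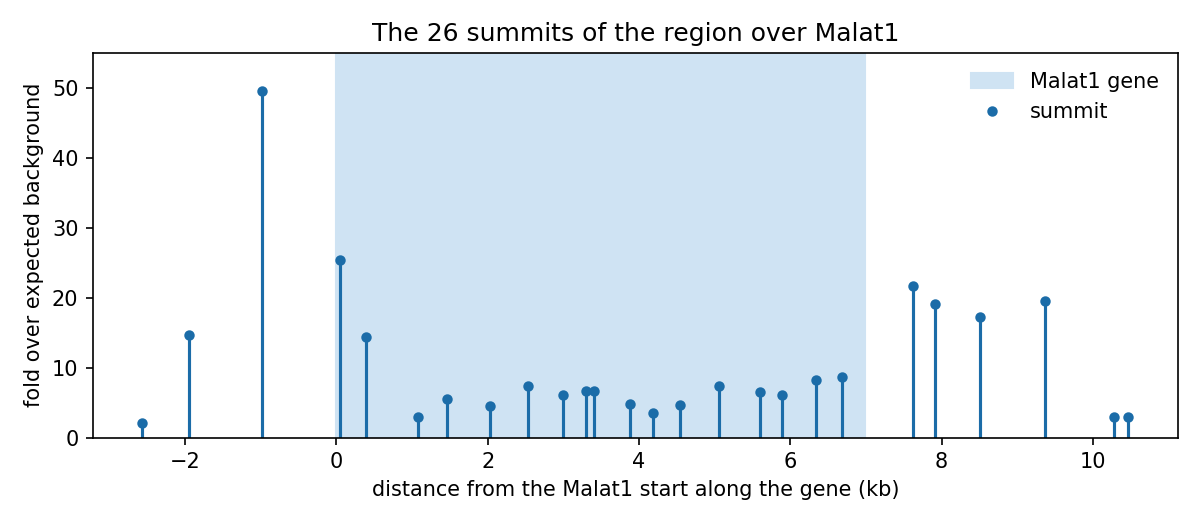
Fold over expected background of the 26 summits of the Malat1 region by distance from the gene's start in kb, with the gene shaded. The highest summit, 49.5-fold, stands upstream of the start, and the 4 highest beyond the 3′ end lie between 17.3 and 21.7-fold.

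Annotated microRNA hairpins lay inside 19 lncRNA genes with a member. In 13 of these the hairpins (29) lay on the strand of the lncRNA, and 10 of the 13 hosts had a region at 10-fold or more, next to 35.0% of all lncRNA genes with a member. These hosts were picked by what they hold, after the folds had been seen. The region at the start of Gm13648 had 62.3-fold (57.1 to 67.7), and its summit lay 4.20, 4.97 and 5.97 kb from the hairpins of miR-200b, miR-200a and miR-429, which restrain Zeb1 and Zeb2 in epithelia. The Mirc35hg region had 48.8-fold, 4.44 to 8.18 kb from miR-183, miR-96 and miR-182, a cluster known from sensory epithelia. Mir22hg stood 2.31 kb from miR-22. Mir205hg, the host of miR-205, had 17.4-fold, 2900076A07Rik (miR-1839) 32.8-fold, E130102H24Rik (miR-101a) 23.0-fold and A330023F24Rik (miR-29b-2 and miR-29c) 11.7-fold. The weakest were Gm32817 (miR-193b and miR-365-1) at 6.72-fold, Lncppara (let-7c-2 and let-7b) at 3.83-fold at its 3′ end and Gm10505 (miR-7216) at 2.67-fold.

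Other named lncRNAs were chosen after their values had been seen, so they stand above their class. The 50 members nearest to opposite-strand or antisense genes had a median of 4.46-fold, with 14 (28.0%) at 10-fold or more. Rab10os had 53.7-fold at its 5′ end, Zfp286os 41.7-fold and Dubr 41.0-fold. Hk1os had 44.1-fold, with its summit 175 bp from a start of Hk1, which encodes a hexokinase. Tincr, required for epidermal differentiation, had 29.4-fold and 13.2-fold at its ends. Egfros, antisense within Egfr, the receptor of EGF, had 28.1-fold at its 5′ end, 78.6 kb from the Egfr end, and 14.5-fold at its 3′ end.

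Coding neighbours were spread over many genes. A coding end lay within 100 kb of 2796 members, and these pointed to 1873 distinct nearest coding genes, of which 1267 had 1 member, 606 had more and 20 had at least 5. The median distance to the nearest coding end was 25.9 kb, against 26.1 kb for other away regions. Inside a coding gene lay 981 of 3202 members (30.6%, 29.1 to 32.3), against 56.1% of other away regions. The median fold of members was above that of other away regions both inside coding genes (median 5.22 against 4.52) and between them (5.68 against 4.99). Another region lay within the distance commonly used to stitch enhancers into clusters of 87.9% of members, next to 88.1% of all regions and 86.0% of other away regions. A member was the strongest region within 50 kb in 13.3% of cases, next to 13.4% of all regions. The 46 of the 53 at 50-fold or more that were strongest are no separate result. The same fold picks and ranks them, and only 2.07% of all regions reach 50-fold.

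The outer ends of the nearest coding gene usually held a higher fold than the member (median 22.5 against 5.68-fold). The strongest summit at those ends was below the member's in 868 of 2796 pairs (31.0%). In 471 of those 868 the coding gene had no summit at its outer ends at all. Internal starts were not counted. Slc9a3 is thus among the 471, although a member lay 70 bp from one of its starts. Pairs share coding genes, and the share was not computed for other away regions, so it is not shown to be particular to members. Among members at 10-fold or more the member was the higher in 420 of 837 (50.2%). The genes nearest to most members were Ywhaz (9 members at 6 lncRNA genes, 2.32 to 35.2-fold) and Rhou (7, up to 29.3-fold). After them 8 genes tied with 6 members each, and the 3 whose strongest member was highest were Rbm47 (up to 35.4-fold), Egfr (up to 28.1-fold) and Rnf220 (up to 26.4-fold). The other 5 were 1700001O22Rik, Sowahc, Ctnnb1, Nrip1 and Hpcal1. Ywhaz encodes a 14-3-3 protein, Rhou a small GTPase, Rbm47 an RNA-binding protein and Rnf220 a ubiquitin ligase. At Egfr the 4 members other than those of Egfros belonged to Gm39584 and had 2.67 to 5.45-fold.

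Across 5 lists of genes of this tissue and of AP-1, 21 of 85 genes (24.7%) were the nearest coding gene of a member within 100 kb, next to 1873 of 20665 coding genes (9.06%). Of the 35 members beside them 18 had 10-fold or more (51.4%), next to 837 of 2796 (29.9%) of all members with a coding end that near. The lists were chosen with earlier results known, and the difference was not tested. Of 14 AP-1 genes 5 were the nearest coding gene of a member (9 members, 5 at 10-fold or more). Gm38543 had 61.9-fold, 22.1 kb from Fos, and Gm40477 had 46.5-fold, 43.7 kb from it, while Fos had 55.4-fold at its ends. D730003I15Rik had 31.7-fold 41.1 kb from Atf3, Gm46178 15.5-fold near Batf3 and Gm32348 14.96-fold near Jdp2. Of 16 stem cell and Wnt response genes 6 had members (8, with 5 at 10-fold or more). Gm31536 had 32.7-fold, 6.66 kb from Ephb2, a receptor of the crypt axis. Gm36876 and Gm46298 had 22.4 and 11.01-fold near Axin2, a Wnt target that had no summit at its own outer ends. Gm16863 had 12.9-fold near Ephb3, and Pvt1 lay 47.6 kb from Myc.

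The counts of the remaining lists stand next to the same shares, 9.06% of all coding genes and 29.9% of members at 10-fold or more. Of 18 absorptive and intestinal identity genes 5 had members (6, with 4 at 10-fold or more). Of these 4, Gm41003 had 13.7-fold at 70 bp from a start of Slc9a3, the apical sodium and proton exchanger. Of 16 secretory-lineage genes, Klf4 (Gm34343, 13.7-fold) and Foxa1 (Gm30518, 11.5 and 10.8-fold) had members at 10-fold. Of the 21 repair and inflammation genes found, 3 had members (7), with Gm32689, 16.8-fold and 33.6 kb from Anxa1, at 10-fold or more. The nearest gene is not shown to be the target of a region.

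Base composition and motif letters differed with strength at 6815 lncRNA outer starts that lay away from coding ends and had a promoter entry. Promoters without a region (5452) had a median GC content of 46.3%, those with one (1363) 50.0% and those with one at 10-fold or more (526) 51.7%. The observed-to-expected CpG ratio was at least 0.6 in 3.69% of promoters without a region, 9.68% with one below 10-fold, 24.5% at 10-fold or more and 40.5% at 30-fold or more, next to 47.7% of coding promoters. The SP and KLF letters GGGCGGG stood in 3.65%, 7.41%, 19.8% (16.6 to 23.4) and 32.9% (26.1 to 40.6) of the same 4 groups, next to 25.6% of all promoters in the table and 33.9% of coding ones. The ETS letters CCGGAAG went from 2.40% without a region to 8.37% at 10-fold or more and were in 8.86% of all promoters.

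The AP-1 letters TGANTCA stood in 10.0% (9.26 to 10.9) of lncRNA promoters without a region, 11.8% (9.81 to 14.2) below 10-fold, 15.2% (12.4 to 18.5) at 10-fold or more and 13.9% (9.38 to 20.2) at 30-fold or more. They stood in 7.81% of all promoters and 6.99% of coding promoters. The intervals without a region and at 10-fold or more did not overlap. Egfros and Mirc35hg, printed above, are among the promoters that hold them, and Gm38543 near Fos, at 61.9-fold, is not. The TATA letters went the other way, from 17.9% without a region to 13.7% at 10-fold or more. The letters of the SP and KLF and ETS motifs share CpG dinucleotides with the base composition, so motif and composition cannot be told apart here.

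**Figure D5:**
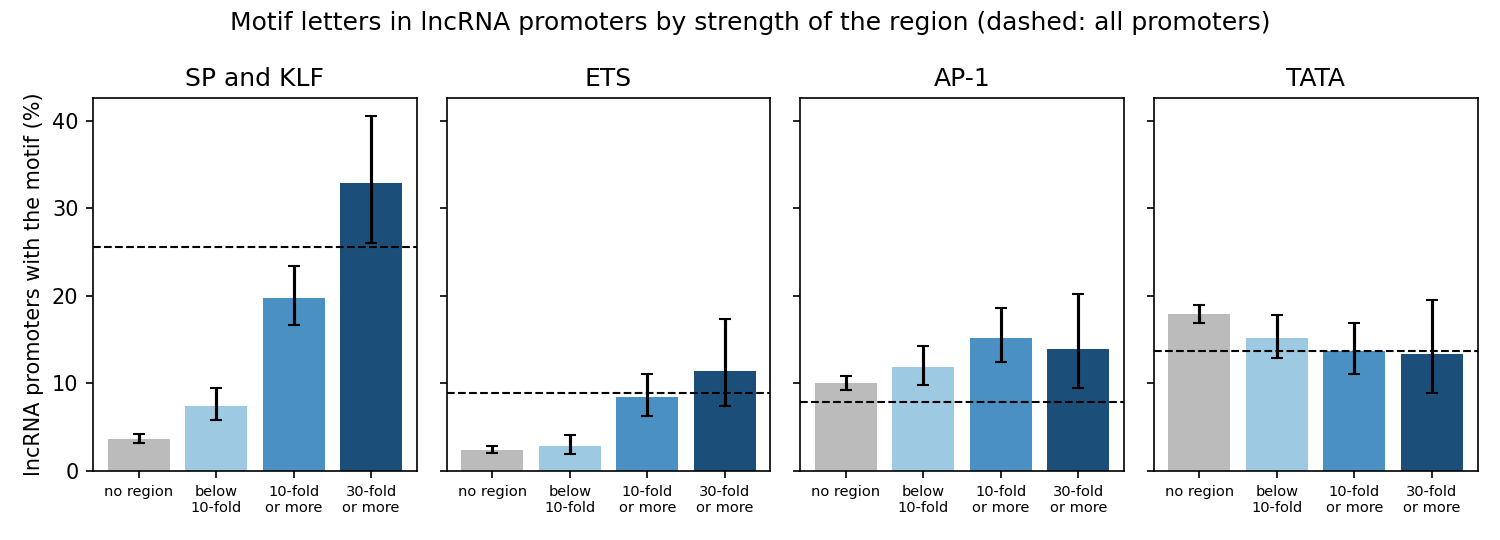
Percentage of lncRNA promoters away from coding ends that hold the motif letters, for promoters without a region, with one below 10-fold, at 10-fold or more and at 30-fold or more, with Wilson 95% intervals. The dashed line gives all promoters of the table, and the SP and KLF share goes from 3.65% to 32.9%.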

How the data were processed

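ATAC-seq was made from 4 colonic organoid libraries in 4 groups of 1. Per the submitters' processing notes, Bowtie2 and MACS2 were used with mm10, and their roles, versions and thresholds are not stated. The deposited list holds 157922 summit records. Its values are the authors' fold (a ratio of summit pileup over background), the −log10 q of each summit and a score of 10 times −log10 q that the authors deposited with them, and a region's fold is its strongest summit's. The folds correspond to whole pileups plus 1 over 8.63 (within 0.01 for 100% of values), which gave a pileup of 17 to 710 for members (median 47) and the Poisson 95% intervals. Library depths are unknown from this file. Positions are 1-based. Gene ends, promoters and microRNAs come from RefSeq tables on GRCm38.p6 (9533 lncRNA and 17492 coding genes had a promoter, none on chromosome 18). A rule named listed lncRNAs, the 15 strongest, 5 widest and 5 many-summit members, the 5 most frequent coding neighbours, and members at 10-fold or more beside listed genes. MicroRNA hosts, other named lncRNAs and X-chromosome genes fall outside that rule. The hosts and the other named lncRNAs were picked after their folds had been seen. A few genes that the rule names are not reported here. Members and lists were chosen with earlier results of these data known. Calculations used Python 3.11.15 with pandas 2.3.3, numpy 2.4.6, scipy 1.17.1 and matplotlib 3.10.9, and the rule was tested on simulated regions. With 1 list and no replicates no test was made, and alternative windows, distances, thresholds and gene sets are given in the closing section.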

Additional observations from a re-analysis of the deposited data

Results flagged for a closer look

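The X chromosome was outside the comparison, and regions that meet the same distances are found there. They numbered 31 of its 2124 regions (1.46%), against 2.88% on chromosomes 1 to 19. Their median was 6.03-fold, and 8 (25.8%) were at 10-fold or more, next to 25.6% of all X regions. The strongest was 5730405O15Rik at 30.3-fold. Firre, which organises chromatin across chromosomes, had 19.7-fold, Kantr 19.5-fold, and Jpx and Ftx, both genes of the X inactivation centre, 11.1 and 4.41-fold.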

How the results depend on the processing

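Among 100 values recomputed under 11 alternatives, 57 stayed within the counting interval of the value given (or within 1.5 times of a count) and 43 moved. These are counts, medians and shares without a direction, and the comparison with other away regions was not recomputed. Since no member exceeded 100-fold, leaving out regions above that could not change the members' number, folds or widths. A 500 bp window left 1919 regions with a median of 6.14-fold, 32.7% at 10-fold, 555 bp wide, 86% with a near region and 17.6% of lncRNA genes, and a 2000 bp window gave 5378 regions, 5.22-fold, 26.7%, 493 bp, 89.3% and 34.3%. With more than 2 kb from coding ends 27.4% of genes had a region, 32.3% lay inside a coding gene, the median distance was 19.5 kb and 89.1% had a near region, and with more than 10 kb the gene share was 23.7%, the distance 34.2 kb and the near share 86.3%. Only records of −log10 q of at least 10 left 2076 regions (9.04-fold, 45.5% at 10-fold, 749.5 bp, 18.2% of genes, 28.9% inside coding genes, 81.4% with a near region). Any summit gave 5.91-fold, 32.3% and 557 bp. Without Gm-number genes 661 regions at 545 genes had 6.72-fold, 36.3% at 10-fold, 600 bp, 28.9% of genes and 86.4% with a near region. A near distance of 5 kb gave 71.1%. Leaving out regions near a coding start of the promoter table, chosen after seeing the data, put 28.7% inside coding genes. In promoters at 10-fold or more rather than with any region, the motif shares were 15.2% (AP-1), 2.09% (CRE), 8.37% (ETS), 19.8% (SP and KLF) and 1.14% (YY1), against 13.1%, 1.25%, 4.92%, 12.2% and 1.83%. Why these moved was not tested. No paired analysis was possible because each group has 1 library and the list gives no value per library.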
